A study of Homo sapiens with 18 samples.

Results

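The comparison of TEAD inhibition with its control at 12 h covered 6 of the 18 RNA sequencing libraries of a time course in N/TERT2G cells, a telomerase-immortalized line of human keratinocytes, and asked which transcripts had begun to move before the large responses of the later times. The groups given first had been transduced with an adenovirus encoding TEADi, a fusion of green fluorescent protein (GFP) with a nuclear localization signal and the TEAD-binding stretches of VGLL4, YAP1 (with a changed residue) and TAZ, which occupies TEAD and keeps YAP1 and TAZ from binding it. The matching groups received the same kind of virus encoding GFP. Cells were collected 12, 24 or 48 h after transduction, in triplicate for either virus, and polyadenylated RNA was sequenced. All 6 groups were thus infected with a replication-deficient adenovirus type 5 driven by a CMV promoter at a multiplicity of infection of 25, none was uninfected, and the cells are 1 line. How far the triplicate cultures were separate is not given in the labels, so a p-value here speaks of the variation among these libraries alone, which could be technical.

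Of 15896 genes listed, 13050 on chromosomes 1 to 22, X or the mitochondrial genome were tested, namely those whose normalised value reached 1 in 3 or more libraries. The values were read counts scaled by TMM, which sets libraries to a common effective size, and they are not corrected for gene length. A difference is the mean log2(value + 1) in Ad-TEADi cells minus that in Ad-GFP cells, with its standard error (SE), and the adjusted p is that of limma with Benjamini-Hochberg adjustment over the 13050 genes. Differences on this scale understate the change of genes with low values. CHADL lay just inside the filter, with the third highest of its values at 1.001 and 12 h means of 0.852 in Ad-TEADi and 0.935 in Ad-GFP cells, and ZHX1-C8ORF76 lay just outside it at 0.999, with 12 h means of 0.470 in Ad-TEADi and 1.504 in Ad-GFP cells.

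TEAD1 to TEAD4 are DNA-binding proteins with little activity of their own. The coactivators YAP1 and TAZ (gene WWTR1), which carry no DNA-binding domain, bind them when the kinases of the Hippo pathway are inactive, and together they switch on genes of growth, matrix and cytoskeleton such as CTGF and CYR61. VGLL4 competes for the same surface. In epidermis this module is known for keeping basal keratinocytes proliferating, and the cells leave the cycle and differentiate as it is lost.

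At 12 h most differences were small. The study, with another test (Partek GSA), reported no gene at 12 h past a q-value of 0.05 and 1.5-fold. It named low TEADi expression at that time as the probable reason, which was not tested here. Past an adjusted p of 0.05 were 189 genes (1.45% of those tested), of which 91 rose (0.697%) and 98 fell (0.751%) in Ad-TEADi cells, and 184 of the 189 changed by less than the 1.5-fold limit that the study applied. The median rise was 0.25 and the median fall −0.27 on the log2 scale, and 49 of the rises and 48 of the falls stayed within 1.2-fold. The smallest difference that passed was 0.15. At an unadjusted p of 0.05 there were 2413 genes (18.5%). The 3 libraries of each virus did not overlap in 90 of the 91 rises and in 97 of the 98 falls, against 22% of all tested genes, but this is the contrast that chose them. Single libraries weighed heavily on the count. Without replicate 1 of Ad-TEADi no gene passed in limma (1848 at an unadjusted p of 0.05), without replicate 2 of Ad-TEADi 25 passed, without replicate 1 of Ad-GFP 58 and without replicate 2 of Ad-GFP 33, whereas 194 passed without replicate 3 of Ad-TEADi and 250 without replicate 3 of Ad-GFP. The genes that passed in 5 of these 6 fits were AMOTL2, B3GNT5, HK2, MYC, PARP12, SLITRK6, TCF7L1 and ZMIZ2. The direction of the calls also moved with the measure: in a fit of the deposited TPM values 63 genes passed, of which 57 were higher and 6 lower in Ad-TEADi cells.

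**Figure D1:**
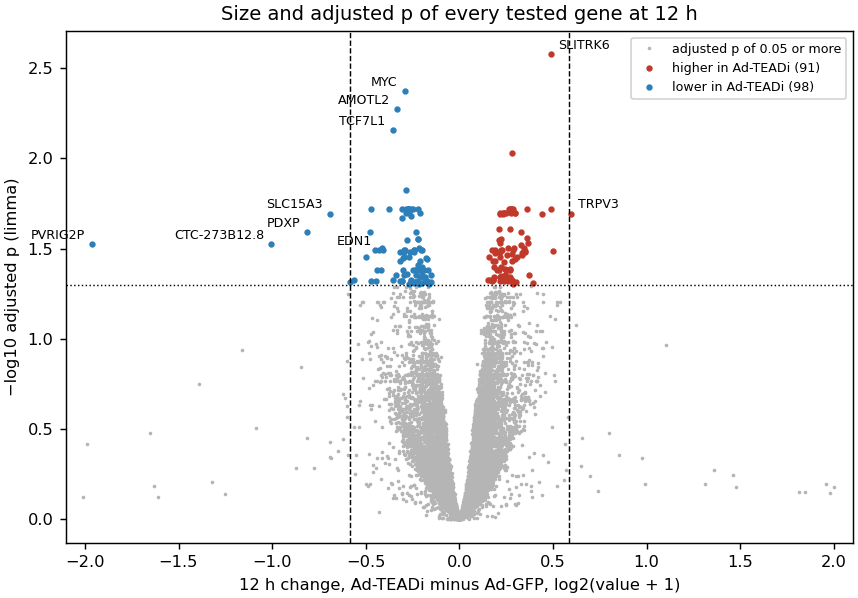
Log2 difference at 12 h, Ad-TEADi minus Ad-GFP (x axis), against the adjusted p of limma on a −log10 scale (y axis), 1 point a gene, with the 1.5-fold limit drawn as vertical dashed lines and the adjusted p of 0.05 as a dotted line. Almost all of the 189 genes past the adjusted p lie between those lines, and 16 of the 13050 genes lie beyond the drawn range of 2.1 on either side.

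The 12 h libraries held 14.2 to 18.1 M reads by the smallest step of their values (14.2 to 26.7 M over all 18). The keratinocyte markers KRT5, KRT14, TP63, ITGA6, ITGB4, COL17A1, LAMB3, CDH1 and DSP summed to between 24600 and 25000 in Ad-TEADi libraries and 24900 and 26000 in Ad-GFP libraries, and none of the 9 passed the test. Fibroblast markers (7 of 10 listed) summed to 100 to 108 in Ad-TEADi and 98.2 to 108 in Ad-GFP libraries, melanocyte markers (2 of 7 listed) to 1.72 to 2.52 in Ad-TEADi and 1.69 to 2.06 in Ad-GFP libraries with TYR, TYRP1 and DCT unlisted, and immune and endothelial markers (3 of 10 listed, almost wholly CD68) to 30.5 to 37.4 in Ad-TEADi and 34.4 to 41.1 in Ad-GFP libraries with PTPRC and PECAM1 unlisted. VGLL4, YAP1 and WWTR1, whose binding stretches the inhibitor carries, overlapped between the groups, with differences of −0.041, 0.084 and 0.042, so the virus left no mark on them by which the labels could be checked, and whether reads of the inhibitor count toward these genes was not tested.

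CTGF is the standard reporter gene of YAP1 and TAZ, and its promoter is shown because it carries the motif that TEAD proteins bind. The letters GGAATG, or CATTCC on the other strand, were searched in the RefSeq promoters (GRCh38.p14, 250 bases before to 50 after the start) of the genes. The motif stood in 6 of the 18 promoters matched for the list of 23 tested YAP/TAZ-TEAD targets (33.3%), in 13 of 82 matched for the falls (15.9%) and in 6 of 77 matched for the rises (7.79%), against 1061 of 9847 tested genes with a promoter (10.8%) and 3836 of all 27305 promoters (14.05%). The RefSeq promoter of CTGF had 3 copies, in capitals, at chr6:131951323-131951622 on the minus strand, with their first bases 169, 104 and 95 bases before the start. A match is a description of letters and neither a site nor a cause.
CTGF: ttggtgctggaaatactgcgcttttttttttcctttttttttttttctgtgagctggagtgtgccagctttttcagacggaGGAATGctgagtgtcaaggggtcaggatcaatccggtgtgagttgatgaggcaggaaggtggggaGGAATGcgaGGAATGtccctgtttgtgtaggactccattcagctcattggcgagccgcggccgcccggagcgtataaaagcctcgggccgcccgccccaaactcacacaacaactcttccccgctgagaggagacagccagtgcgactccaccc

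No YAP/TAZ-TEAD target had moved by 1.5-fold at 12 h, but 20 of the 23 tested had a negative difference and 3 a positive one. AMOTL2 and EDN1 fell past the test and none rose, against 0.751% of all tested genes lower and 0.697% higher past it. The median over the list was −0.056, against 0.001 over all tested genes. Without replicate 1 of Ad-GFP this median was −0.095 with 21 of 23 negative, and without replicate 2 of Ad-TEADi it was −0.080 with 16 of 23 negative. It was nearer to that of all tested genes, at −0.039 with 19 of 23 negative, without replicate 1 of Ad-TEADi. Without replicate 3 of Ad-GFP it was −0.044 with 17 of 23 negative. In 9 of the 23 all Ad-TEADi libraries lay below all Ad-GFP libraries, and in none above (11% of all tested genes either way). The same list had a median of −0.26 at 24 h, with 13 lower (8.27% of all tested genes) and 1 higher (10.1%) past the adjusted p, and −0.56 at 48 h.

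AMOTL2, an angiomotin family scaffold that holds YAP1 outside the nucleus and is itself induced by it, read 92.0, 93.1 and 95.7 in Ad-TEADi libraries, against 116, 119 and 119 in Ad-GFP libraries. The groups were tight and well apart, with a difference of −0.33 (SE 0.056, adjusted p of limma 0.00534). EDN1, the vasoactive peptide endothelin 1, read 12.0, 13.7 and 13.8 in Ad-TEADi libraries, against 19.1, 15.4 and 19.8 in Ad-GFP libraries, a difference of −0.43 (SE 0.10, adjusted p 0.0322). Replicate 2 of Ad-GFP was nearest to the Ad-TEADi libraries, yet the groups did not overlap. Neither of these promoters held the motif.

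CTGF, a secreted matricellular protein, read 51.7, 53.3 and 52.2 in Ad-TEADi libraries, against 75.8, 75.3 and 69.4 in Ad-GFP libraries. The 3 libraries of each virus lay close together and far from the other 3, and the difference of −0.48 had a 95% interval of −0.81 to −0.15, but it missed the threshold (adjusted p 0.130) in the fit that takes the spread from all 18 libraries and passed it where only the 6 libraries of that time were fitted (adjusted p 0.00013). CYR61, its close relative, read 279, 291 and 282 in Ad-TEADi libraries, against 382, 351 and 344 in Ad-GFP libraries, without overlap. Its difference of −0.34 (SE 0.083) likewise missed the threshold (adjusted p 0.0586) and passed in the 6 libraries (adjusted p 0.00263). ADAMTS1, a secreted protease on the list of TGF-β and matrix genes and not on that of the targets, read 83.4, 93.1 and 88.6 in Ad-TEADi libraries, against 122, 129 and 130 in Ad-GFP libraries, again without overlap, with a difference of −0.52 (SE 0.13, adjusted p 0.0625).

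None of the other targets passed. FJX1 differed by −0.27 (adjusted p 0.0786), THBS1, which encodes thrombospondin 1, by −0.17 (adjusted p 0.414), the receptor kinase AXL by −0.14 (adjusted p 0.157) and the activin antagonist FST by −0.093 (adjusted p 0.235). For AXL the 95% interval ran from −0.25 to −0.032 and for FST from −0.18 to −0.006, so a fall of 1.5-fold lay outside both. Of the 9 tested TEAD factors and cofactors none passed, with a median of 0.038, and the 4 TEAD genes themselves lay between −0.10 (TEAD4) and 0.038 (TEAD1). VGLL3, a cofactor that competes with YAP1 for TEAD, was above Ad-GFP in all 3 Ad-TEADi libraries, at 0.21 (adjusted p 0.158). Of the 23 tested Hippo kinases and adaptors none passed either, with a median of 0.006.

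**Figure D2:**
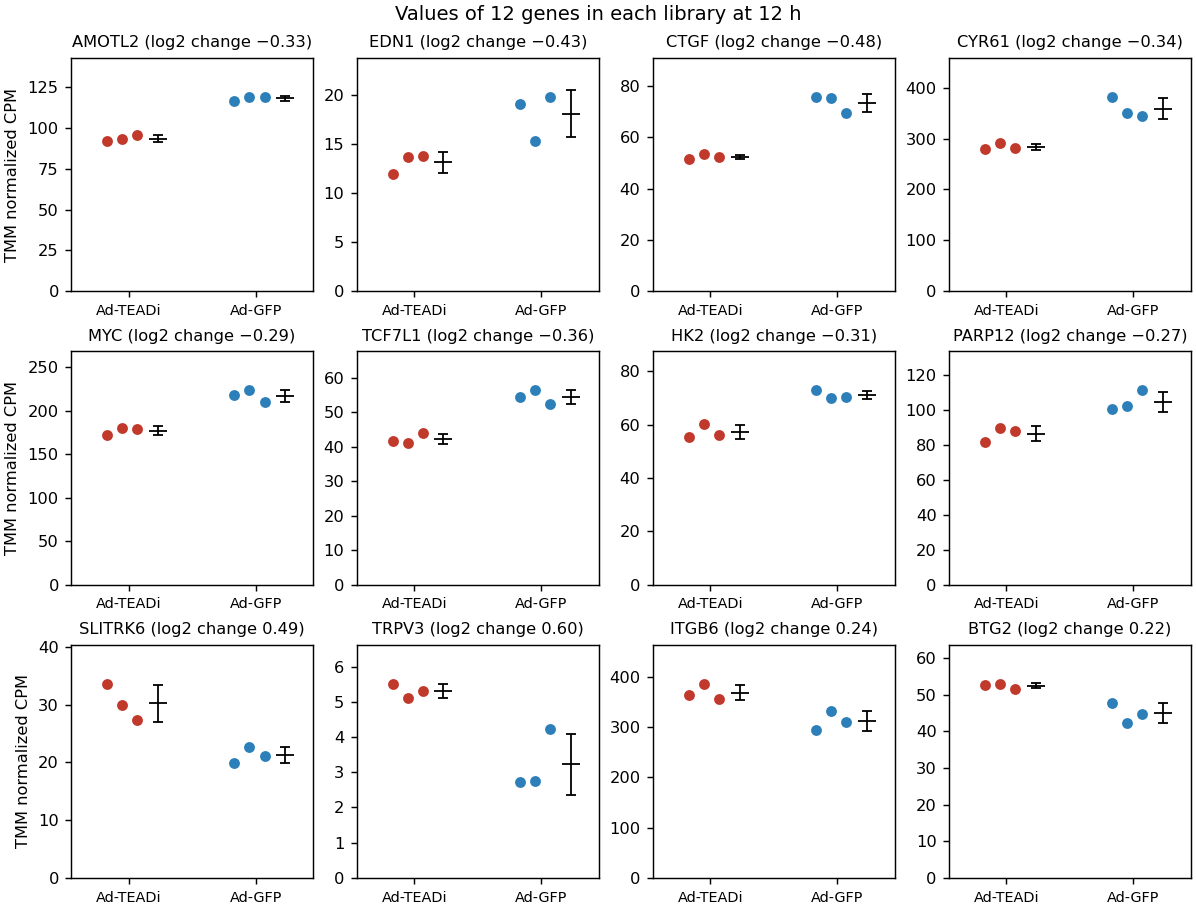
Normalised TMM value (y axis, a separate linear scale in each panel) in each 12 h library for 12 genes, Ad-TEADi on the left and Ad-GFP on the right of each panel, with points for single libraries and bars for mean ± SD (n = 3 each). The 2 groups do not overlap in any of the 12 panels, CTGF and CYR61 included, although these 2 missed the adjusted p.

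The genes that fell included regulators of growth that are not on the target list. MYC, the transcription factor of growth and ribosome production, read 172, 181 and 179 in Ad-TEADi libraries, against 218, 223 and 210 in Ad-GFP libraries. Every Ad-TEADi library was thus well below every Ad-GFP library, with a difference of −0.29 (SE 0.047, adjusted p 0.00426), which was smaller at 24 h (−0.14, adjusted p 0.0358) and −0.49 at 48 h. TCF7L1, a TCF factor of the Wnt pathway that holds epidermal stem cells undifferentiated, read 41.6, 41.1 and 44.04 in Ad-TEADi libraries, against 54.4, 56.4 and 52.3 in Ad-GFP libraries. Its difference was −0.36 (SE 0.062, adjusted p 0.00696) without overlap. HK2, the hexokinase of fast-growing cells, read 55.3, 60.1 and 56.2 in Ad-TEADi libraries, against 72.8, 70.0 and 70.2 in Ad-GFP libraries, and differed by −0.31 (SE 0.062, adjusted p 0.019), again with the groups apart.

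GATA3, a transcription factor of the epidermal barrier, read 11.4, 13.98 and 12.9 in Ad-TEADi libraries, against 16.9, 17.4 and 20.1 in Ad-GFP libraries (−0.48, SE 0.11, adjusted p 0.0256). It was the 1 of 25 tested differentiation transcription factors that passed, against 0.751% of all tested genes lower past the test. CYGB, an oxygen-binding globin, read 30.2, 31.3 and 32.6 in Ad-TEADi libraries, against 37.9, 39.5 and 39.0 in Ad-GFP libraries. The gap was narrow, at −0.30 (adjusted p 0.0322), but every Ad-TEADi library was below every Ad-GFP library. PROSER2 was 32.6, 29.7 and 32.6 in Ad-TEADi libraries, against 37.4, 40.1 and 38.2 in Ad-GFP libraries (−0.28, adjusted p 0.0437), and DUSP14, a phosphatase that acts on MAP kinases, fell by 0.26 on the log2 scale (adjusted p 0.019). The largest falls with a higher group averaging at least 5 were otherwise SLC15A3, a lysosomal peptide transporter, at −0.69, ASB16-AS1 at −0.50, RTN4R at −0.47, FKBP1C at −0.47, PLEKHA4 at −0.45, UNC93B1 and LRRC61 at −0.44, C19orf66 at −0.42, ADAMTSL5 at −0.41 and ZNF213 at −0.41.

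Among the rises, SLITRK6, a membrane protein of the nervous system and inner ear, had the smallest adjusted p of all genes. It read 33.6, 29.9 and 27.3 in Ad-TEADi libraries, against 19.9, 22.7 and 21.2 in Ad-GFP libraries. The groups were clearly apart, at 0.49 (SE 0.074, adjusted p 0.00266). C10orf10, which is induced by glucocorticoids, progesterone and FOXO factors, read 7.68, 7.90 and 6.54 in Ad-TEADi libraries, against 5.43, 4.54 and 5.56 in Ad-GFP libraries (0.44, SE 0.096, adjusted p 0.0203), without overlap.

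TRPV3, a calcium-permeable channel of keratinocytes that opens with warmth, was the only gene past the adjusted p that rose beyond 1.5-fold on this scale. It read 5.51, 5.10 and 5.32 in Ad-TEADi libraries, against 2.71, 2.75 and 4.23 in Ad-GFP libraries, with a difference of 0.60 (SE 0.13, adjusted p 0.0203). Replicate 3 of Ad-GFP was higher than its partners and still below every Ad-TEADi library, and these values stood for about 106, 103 and 112 reads in Ad-TEADi and 49, 54 and 69 in Ad-GFP libraries. Its promoter is shown as that of the leading rise, since it too held the letters of the TEAD motif, at chr17:3557763-3558062 on the minus strand, with CATTCC starting at base 5 of the transcript and GGAATG 210 bases before the start.
TRPV3: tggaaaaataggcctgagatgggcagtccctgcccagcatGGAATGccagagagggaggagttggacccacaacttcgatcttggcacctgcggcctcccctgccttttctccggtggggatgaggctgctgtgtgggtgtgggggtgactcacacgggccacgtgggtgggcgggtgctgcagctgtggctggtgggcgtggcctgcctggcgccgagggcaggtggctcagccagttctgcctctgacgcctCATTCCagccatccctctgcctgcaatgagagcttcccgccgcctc

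Several of the named rises encoded proteins of the cell surface, whose share among the rises and among all tested genes was not counted. KITLG, the KIT ligand by which keratinocytes act on melanocytes, read 36.6, 28.2 and 31.0 in Ad-TEADi libraries, against 21.6, 26.2 and 25.6 in Ad-GFP libraries (0.37, SE 0.085, adjusted p 0.0295). Replicate 2 of Ad-TEADi was only a little above the highest Ad-GFP library. ITGB6, the integrin subunit that activates latent TGF-β, read 364, 387 and 357 in Ad-TEADi libraries, against 294, 333 and 310 in Ad-GFP libraries (0.24, adjusted p 0.0202). ITGB8, which shares that function, read 28.4, 23.8 and 24.0 in Ad-TEADi libraries, against 17.8, 20.9 and 19.9 in Ad-GFP libraries (0.36, adjusted p 0.019). Their partner ITGAV, named after its values were seen, differed by 0.27 (adjusted p 0.019), with 276, 271 and 261 in Ad-TEADi libraries, against 203, 234 and 235 in Ad-GFP libraries. Both β subunits and their α partner were thus higher without overlap. DSC2, a desmosomal cadherin, read 39.5, 43.7 and 37.3 in Ad-TEADi libraries, against 31.4, 33.1 and 32.8 in Ad-GFP libraries (0.30, adjusted p 0.0202). Other rises with a mean of at least 5 were FAM172A (0.50), ARID4A (0.49), SETDB2 (0.39), DENND2C (0.37), TNFAIP8 (0.36) and SDR16C5 (0.35).

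Both the adjusted p and the 1.5-fold limit were passed by 5 genes (0.0383% of those tested), TRPV3 as the 1 rise (0.00766%) and 4 falls (0.0307%), and 3 of the 4 falls had values under 5 in every library. PVRIG2P, a pseudogene, read 0.350, 0.385 and 0.109 in Ad-TEADi libraries, against 4.83, 3.45 and 3.73 in Ad-GFP libraries, which stood for about 5.80, 6.85 and 1.32 reads in Ad-TEADi and 88.0, 68.0 and 60.6 in Ad-GFP libraries. Its difference of −1.96 (adjusted p 0.030) stood against one of −0.017 at 24 h. CTC-273B12.8 read 0.179, 0.0938 and 0.0982 in Ad-TEADi libraries, against 0.690, 2.15 and 1.150 in Ad-GFP libraries (−1.01, adjusted p 0.030), or at most 2.48 reads in any Ad-TEADi library. PDXP, a phosphatase of pyridoxal phosphate, read 0.960, 2.25 and 1.74 in Ad-TEADi libraries, against 4.78, 3.96 and 2.31 in Ad-GFP libraries (−0.81, adjusted p 0.0256), where replicate 2 of Ad-TEADi and replicate 3 of Ad-GFP nearly met. SLC15A3, better covered, read 7.11, 11.8 and 9.98 in Ad-TEADi libraries, against 15.8, 15.1 and 16.8 in Ad-GFP libraries (−0.69, SE 0.15, adjusted p 0.0203), and differed by 0.19 at 24 h.

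Interferon-stimulated genes were lower together. All 53 tested members had a negative difference, from −0.60 (CMPK2) to −0.026 (GBP3), with a median of −0.28 against 0.001 over all tested genes, while 4 passed the test, against 0.751% of all tested genes lower past it, and in 23 all Ad-TEADi libraries lay below all Ad-GFP libraries, against 11% of all tested genes. STAT2, the interferon signal transducer, read 134, 159 and 149 in Ad-TEADi libraries, against 171, 185 and 196 in Ad-GFP libraries (−0.32, adjusted p 0.033). PML, which organizes nuclear bodies, read 200, 218 and 229 in Ad-TEADi libraries, against 247, 267 and 269 in Ad-GFP libraries (−0.28, adjusted p 0.019). PARP12, an antiviral ADP-ribosyltransferase, read 81.5, 89.5 and 87.9 in Ad-TEADi libraries, against 100, 102 and 111 in Ad-GFP libraries (−0.27, adjusted p 0.019). In each the highest Ad-TEADi library stayed below the lowest Ad-GFP library. TRIM21, an antibody receptor and ubiquitin ligase of the cytosol, read 44.5, 54.8 and 48.6 in Ad-TEADi libraries, against 57.6, 59.2 and 61.6 in Ad-GFP libraries (−0.27, adjusted p 0.0499). MX1, the classical antiviral GTPase, read 513, 698 and 609 in Ad-TEADi libraries, against 792, 841 and 867 in Ad-GFP libraries, also apart, but did not pass (−0.47, adjusted p 0.233).

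The size of this difference varied with the library. Set against the mean of the Ad-GFP libraries, the median over the 53 genes was −0.47, −0.080 and −0.29 in Ad-TEADi replicates 1 to 3, against −0.063, −0.005 and 0.079 in Ad-GFP replicates 1 to 3. The summed level was 7318, 9525 and 8419 in Ad-TEADi libraries, against 9829, 10290 and 10920 in Ad-GFP libraries. Replicate 1 of Ad-TEADi, the library without which no gene of the table passed, was below all 3 Ad-GFP libraries in 53 of the 53 genes, replicate 2 in 23 and replicate 3 in 45. Without replicate 1 of Ad-TEADi the median was −0.19 with 49 of 53 negative, and without replicate 2 it was −0.39. The 20 tested interferon ligands, receptors and sensors did not share the shift, with a median of −0.025 and none past the test. At 24 h the stimulated genes had a median of 0.13 with 3 higher and none lower past the test, and PML was at 0.28, TRIM21 at 0.21 and PARP12 at 0.12. Since no uninfected cells were sequenced, a lower level in Ad-TEADi cells and a higher one in Ad-GFP cells, each relative to uninfected cells, cannot be told apart. In bulk RNA, fewer responding cells and less RNA per cell cannot be told apart either.

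**Figure D3:**
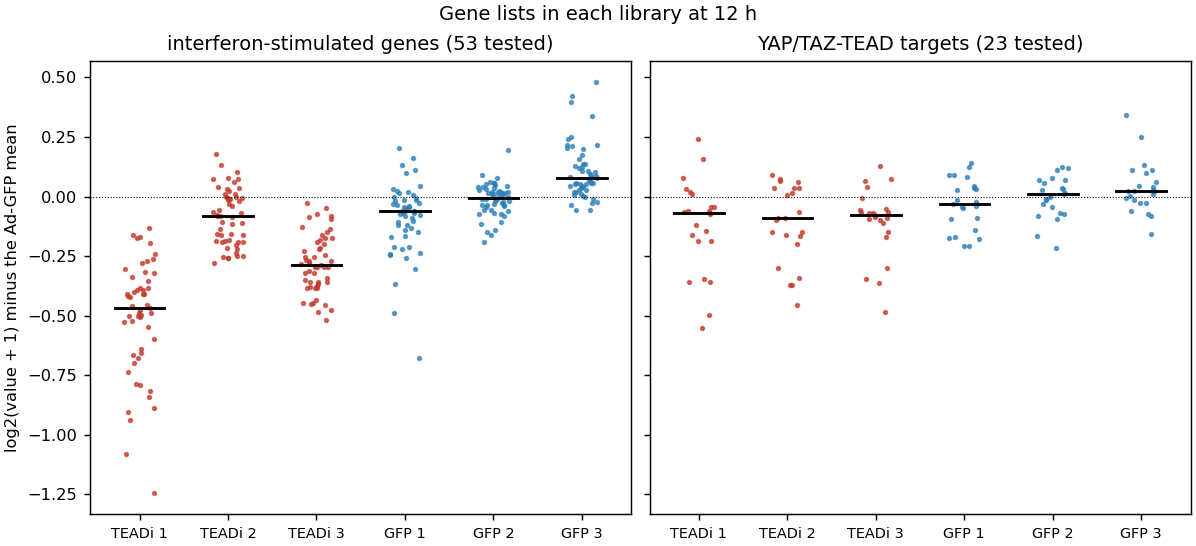
Log2(value + 1) of each gene in a 12 h library minus the mean of the Ad-GFP libraries (y axis), 1 point a gene and a bar for the median, for the 53 interferon-stimulated genes (left panel) and the 23 YAP/TAZ-TEAD targets (right panel), with replicates 1 to 3 of Ad-TEADi on the left and of Ad-GFP on the right of each panel. The medians of the interferon-stimulated genes are −0.47, −0.080 and −0.29 in Ad-TEADi and −0.063, −0.005 and 0.079 in Ad-GFP libraries.

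The promoters of PARP12 and TRIM21 are shown because both fell and hold the letters to which interferon-activated STAT and IRF factors bind. The motif searched, GAAA, any 2 bases and again GAAA, or TTTC, any 2 bases and again TTTC for the other strand, stood in 28 of the 43 promoters matched for the interferon-stimulated list (65.1%), in 3 of 82 matched for the falls (3.66%, PARP12, TRIM21 and C19orf66) and in none of 77 matched for the rises, against 271 of 9847 tested genes (2.75%) and 996 of all 27305 promoters (3.65%). PARP12 lies at chr7:140062902-140063201 with 1 match starting 10 bases before the start, and TRIM21 at chr11:4393653-4393952 with 2 overlapping matches (all in capitals), at bases 18 and 24 of the transcript, both genes on the minus strand of GRCh38.p14 in RefSeq.
PARP12: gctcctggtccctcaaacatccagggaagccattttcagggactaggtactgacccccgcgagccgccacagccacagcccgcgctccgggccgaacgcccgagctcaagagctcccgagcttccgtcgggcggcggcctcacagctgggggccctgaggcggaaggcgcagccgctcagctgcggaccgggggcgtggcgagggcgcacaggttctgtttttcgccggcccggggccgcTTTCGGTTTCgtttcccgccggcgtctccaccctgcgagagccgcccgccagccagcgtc
TRIM21: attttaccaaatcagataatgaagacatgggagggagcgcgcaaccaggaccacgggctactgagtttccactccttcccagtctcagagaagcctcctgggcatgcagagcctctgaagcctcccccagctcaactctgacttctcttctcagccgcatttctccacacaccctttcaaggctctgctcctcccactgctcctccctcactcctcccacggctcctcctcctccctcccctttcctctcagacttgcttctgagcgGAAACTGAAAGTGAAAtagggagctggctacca

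C19orf66, an interferon-induced inhibitor of viral translation that was not on the list, read 51.8, 68.3 and 62.7 in Ad-TEADi libraries, against 79.8, 78.8 and 85.6 in Ad-GFP libraries (−0.42, adjusted p 0.0413). UNC93B1, the chaperone of nucleic acid-sensing Toll-like receptors, fell as well (−0.44, adjusted p 0.0414).

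Targets of p53 tended the other way. Of 28 tested, 5 rose and none fell, against 0.697% of all tested genes higher and 0.751% lower past the test, 19 differences were positive and 9 negative, and the median was 0.079. TP53INP1, which promotes p53-dependent arrest, read 23.2, 23.8 and 24.6 in Ad-TEADi libraries, against 18.7, 18.5 and 19.1 in Ad-GFP libraries (0.33, adjusted p 0.0303). RRM2B, the p53-induced ribonucleotide reductase subunit, read 43.2, 43.1 and 42.8 in Ad-TEADi libraries, against 32.1, 36.2 and 36.7 in Ad-GFP libraries (0.29, adjusted p 0.0312). Both had nearly the same value in all Ad-TEADi libraries, well above every Ad-GFP library. MDM2, the ligase that degrades p53, read 142, 132 and 129 in Ad-TEADi libraries, against 102, 115 and 116 in Ad-GFP libraries (0.27, adjusted p 0.0245). The antiproliferative gene BTG2 read 52.6, 52.95 and 51.6 in Ad-TEADi libraries, against 47.6, 42.3 and 44.7 in Ad-GFP libraries (0.22, adjusted p 0.0398), and the death receptor FAS rose by 0.24 (adjusted p 0.0443). Of the 5, only BTG2 and TP53INP1 were also past 1.5-fold at 24 h.

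In the lists of metabolic and structural genes only a few members passed. Over all tested genes 0.697% were higher and 0.751% lower past the test. Of 29 tested genes of cholesterol and fatty acid synthesis, the sterol enzymes CYP51A1, MSMO1 and SC5D rose and none fell (median 0.039). Of 22 tested genes of NRF2 and oxidative defence, the quinone reductase NQO1 (0.24, adjusted p 0.0202) and the cystine transporter SLC7A11 rose (median 0.046). SLC7A11 read 186, 161 and 157 in Ad-TEADi libraries, against 120, 136 and 145 in Ad-GFP libraries (0.33, adjusted p 0.0256), and was at −0.10 at 24 h and −0.81 at 48 h. Of 32 tested genes of hypoxia and glycolysis, HK2 and the isomerase GPI fell (median 0.006). Of 29 tested SRF and actin genes, ACTB (−0.17), ACTN1 (−0.15), CFL1 (−0.17) and ZYX (−0.22) fell, none rose, and the median was −0.067. Of 36 TGF-β and matrix genes the urokinase PLAU rose, reading 780, 756 and 767 in Ad-TEADi libraries, against 683, 708 and 673 in Ad-GFP libraries, which at 0.16 (adjusted p 0.0354) was among the smallest differences to pass and one without overlap. The EGFR ligand EREG rose as the 1 of 8 genes of that family.

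Of 72 tested cytosolic ribosomal proteins, RPL9 (0.25), RPL39 (0.22), RPS24 (0.22) and RPS23 (0.18) rose and none fell. Past the test were 0.697% of all tested genes higher and 0.751% lower. The median of the ribosomal list was 0.039, and it was 0.003 without replicate 2 of Ad-TEADi and −0.006 without replicate 2 of Ad-GFP. RPL9 may share reads with its near copy RPL9P8, so its value is uncertain. Of the 15 mitochondrially encoded transcripts 14 had a negative difference and none passed, with a median of −0.16, which was −0.097 without replicate 1 of Ad-GFP, and MT-ND6 was the 1 positive at 0.51. They made up 3.61 to 3.83% of all values in Ad-TEADi libraries and 3.91 to 4.56% in Ad-GFP libraries.

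The programmes that dominate the later response had small list medians at 12 h. None of 45 tested S phase genes passed, with a median of −0.056, against −0.31 and 37 lower at 24 h. This median equalled that of the YAP/TAZ-TEAD targets, and 30 of the 45 differences were negative and 15 positive. In 10 of the 45 all Ad-TEADi libraries lay below all Ad-GFP libraries and in 2 above, against 11% of all tested genes either way. None of 51 tested G2 and M phase genes passed, with a median of 0.038, 31 positive and 20 negative. E2F1, the cell cycle transcription factor, differed by −0.15 with a 95% interval of −0.39 to 0.096, and CCND1, which encodes cyclin D1, by −0.13 (adjusted p 0.196). E2F4 was the 1 gene of 21 tested cyclins, cyclin-dependent kinases and their regulators that passed. It fell, as did 0.751% of all tested genes past the test. The median of that list was −0.073, with 14 differences negative and 7 positive. Of 28 tested genes of the spinous and cornified layers none passed, with a median of 0.027, against 0.25 and 12 higher at 24 h. IVL, the envelope protein involucrin, differed by −0.013 with a 95% interval of −0.28 to 0.26, and KRT10 by −0.17 with one of −0.39 to 0.056. None of 22 basal layer genes passed, and KRT5 lay between −0.11 and 0.023. For KRT5, IVL and KRT10 a change of 1.5-fold thus lay outside the interval on this scale.

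The direction of the 12 h differences followed the base composition of the transcripts. Over 12330 genes with a GC content (94.5% of those tested, from the longest GENCODE transcript), the difference had a Spearman correlation of −0.509 with GC content, as a description across genes that share the same 6 libraries, against 0.139 at 24 h and −0.004 at 48 h. The median GC content was 39.5% for the rises and 59.5% for the falls, against 47.7% for all tested genes, and 77 of 91 rises were below 45% while 69 of 97 falls were above 55%. Chromosome 19, rich in GC, held 20 of the 98 falls (20.4%), against 7.2% of tested genes. The slope of each library, in log2 per 10 points of GC, was −0.033, −0.061 and −0.027 in Ad-TEADi and 0.071, 0.037 and 0.013 in Ad-GFP libraries. All 3 libraries of each virus thus had the same sign at 12 h. These slopes are of deviations from the mean of the 6 libraries, so those of the 2 viruses must balance. At 24 and 48 h every group held both signs, as with 0.061, −0.031 and −0.034 in Ad-TEADi libraries at 48 h. In Ad-GFP libraries at 24 h the slopes were 0.009, −0.060 and 0.006. Medians over genes binned by GC content ran from 0.097 below 40% GC to −0.097 at 60% and above.

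**Figure D4:**
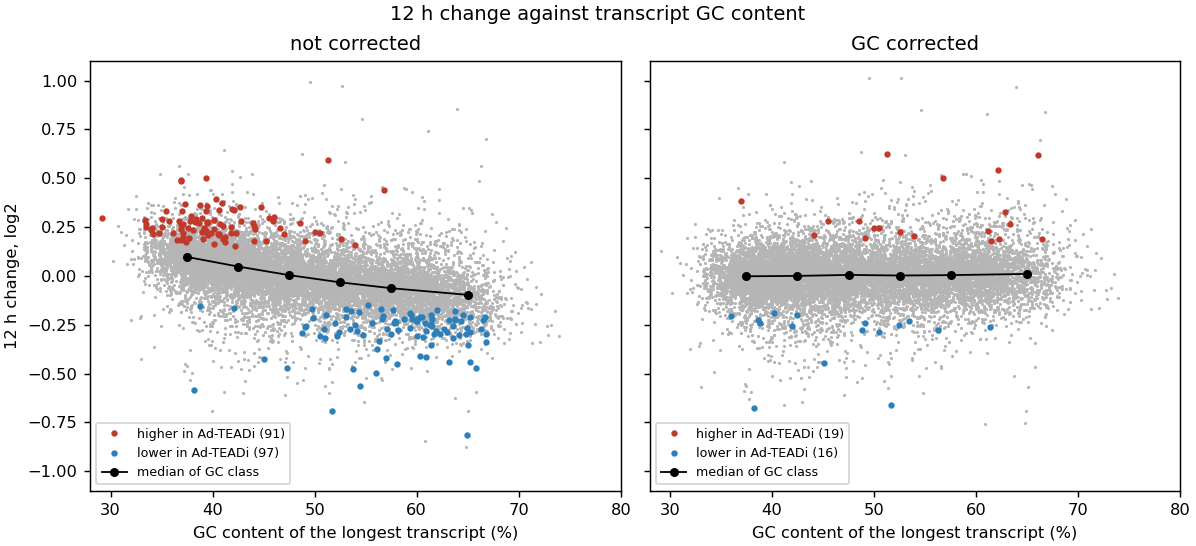
Log2 difference at 12 h, Ad-TEADi minus Ad-GFP (y axis, drawn to 1.1 on either side), against transcript GC content in percent (x axis), 1 point a gene, before and after the GC correction. The rises sit at low and the falls at high GC before the correction, and the trend is nearly level after it.

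After each library's trend with GC had been removed, a fit chosen after the pattern was seen, 35 genes passed (0.284%), 19 higher (0.154%) and 16 lower (0.130%) in Ad-TEADi cells. Of 188 genes past the test without the correction and with a GC value, all kept their direction and 22 still passed, 11 rises and 11 falls. Among these were MYC (−0.28, adjusted p 0.00083), AMOTL2 (−0.28, adjusted p 0.00638), SLITRK6 (0.38, adjusted p 0.00787), DUSP14 (−0.24, adjusted p 0.00884), C10orf10 (0.50, adjusted p 0.00884), TRPV3 (0.62, adjusted p 0.0211), HK2 (−0.29, adjusted p 0.0211), TCF7L1 (−0.26, adjusted p 0.0257), PARP12 (−0.23, adjusted p 0.0364), SLC15A3 (−0.66, adjusted p 0.0364) and EDN1 (−0.45, adjusted p 0.0364). Of these 22, MYC and PLAU (0.20, adjusted p 0.0021) also passed in each of the 6 corrected fits that left out a library, while AMOTL2, SLITRK6, DUSP14 and YBX3 passed in 5 and C10orf10 and DYNLL1 in 4. GATA3 (adjusted p 0.0736), CTGF (−0.45, adjusted p 0.249) and CYR61 (−0.33, adjusted p 0.143) did not pass after the correction, nor did the integrins (adjusted p 0.0815 to 0.136).

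The 13 genes that passed only after the correction included NOTCH1, the receptor that starts spinous differentiation. It read 222, 199 and 218 in Ad-TEADi libraries, against 186, 193 and 193 in Ad-GFP libraries, above in every library, at 0.16 (adjusted p 0.0652) before and 0.27 (adjusted p 0.00083) after the correction, and 0.45 at 24 h. Of the 13, the adrenergic receptor ADRA1D (0.62), the kinase CDC42BPG (0.33), the semaphorin SEMA4B (0.23) and the laminin subunit LAMA5 (0.19) were also higher in this fit. The DNA sensor IFI16 (−0.22) was lower. The uncorrected values of LAMA5 and IFI16 overlapped between the groups, with differences of 0.055 and −0.13. ADRA1D had low values, with means of 1.52 in Ad-TEADi and 0.807 in Ad-GFP cells. The histone H2AFZ (0.19) and ZSCAN16-AS1 (−0.68) passed with and without the correction. ZSCAN16-AS1 also had low values, with means of 0.392 in Ad-TEADi and 1.09 in Ad-GFP cells. Some list medians moved little with the correction, to −0.067 for the YAP/TAZ-TEAD targets, −0.29 for the interferon-stimulated genes, 0.11 for the p53 targets and −0.19 for the mitochondrial transcripts. Other lists came nearer to the median of all tested genes. The SRF and actin list had −0.021 (−0.067 before) and the S phase list −0.033 (−0.056 before). The G2 and M phase list had −0.002 and the TEAD factors and cofactors −0.003 (both 0.038 before). Fewer members passed after the correction. PARP12 was the 1 of the 4 interferon-stimulated genes that still did (STAT2 had an adjusted p of 0.103, PML of 0.0908 and TRIM21 of 0.110), BTG2 the 1 of the 5 p53 targets and NQO1 the 1 of the 2 NRF2 genes, and none of the 4 SRF and actin genes, the 4 ribosomal proteins or the 3 sterol enzymes did. The part of GC content in the uncorrected differences was not tested otherwise.

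The later times share no library with 12 h and give the same measure in separate samples. Of the 91 rises 71 were also higher at 24 h (78.0%) and 44 of them past the adjusted p, against 1 past it in the other direction, where 53.1% of all genes with a positive 12 h difference kept their sign. Of the 98 falls 55 were also lower at 24 h (56.1%), 23 of them past the adjusted p and 7 past it in the other direction, against 52.3% of all genes with a negative 12 h difference. By 48 h 74 of the 91 rises (81.3%, background 53.8%) and 74 of the 98 falls (75.5%, background 61.8%) had the 12 h direction. After the GC correction 16 of the 19 rises (84.2%) and 9 of the 16 falls (56.2%) kept their direction at 24 h, against 55.5% of all genes with a positive and 58.4% of all with a negative difference in that fit.

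Past the adjusted p at 12 h and past it with 1.5-fold at 24 h, where 233 genes were (1.79%), were 11 genes, each in the same direction. These were EDN1 (−1.05 at 24 h and −1.85 at 48 h), CYGB (−0.66 at 24 h), PROSER2 (−0.84 at 24 h) and TCF7L1 (−0.59 at 24 h) among the falls, and SLITRK6 (1.17 at 24 h and 2.34 at 48 h), TRPV3 (0.76 at 24 h and 2.05 at 48 h), C10orf10 (1.28 at 24 h and 1.74 at 48 h), ITGB6 (0.59 at 24 h), ITGB8, BTG2 (0.59 at 24 h) and TP53INP1 among the rises. AMOTL2 followed the same course, at −0.52 at 24 h and −1.15 at 48 h, as did CTGF at −1.81 and −2.97 and CYR61 at −1.0 and −1.66.

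Seen from the later response, most of its genes already leaned the same way at 12 h. Of the 154 genes past the adjusted p with at least 1.5-fold higher values at 24 h (1.18%), 118 (76.6%) had a positive 12 h difference, against 50.4% of all tested genes, with a median of 0.13, and 7 passed the 12 h test. Of the 79 such lower genes (0.605%), 72 (91.1%) had a negative 12 h difference, against 49.6%, with a median of −0.15, and 4 passed. With the GC correction these shares were 79.0% of 143 higher (1.16%) and 90.0% of 80 lower genes (0.649%). Without the correction, the shares for the 48 h response were 65.7% of 823 higher (6.31%) and 65.5% of 827 lower genes (6.34%). The 24 h and 12 h responses themselves differed in 1335 genes (10.2%), among them 26 of the 91 rises and 43 of the 98 falls.

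**Figure D5:**
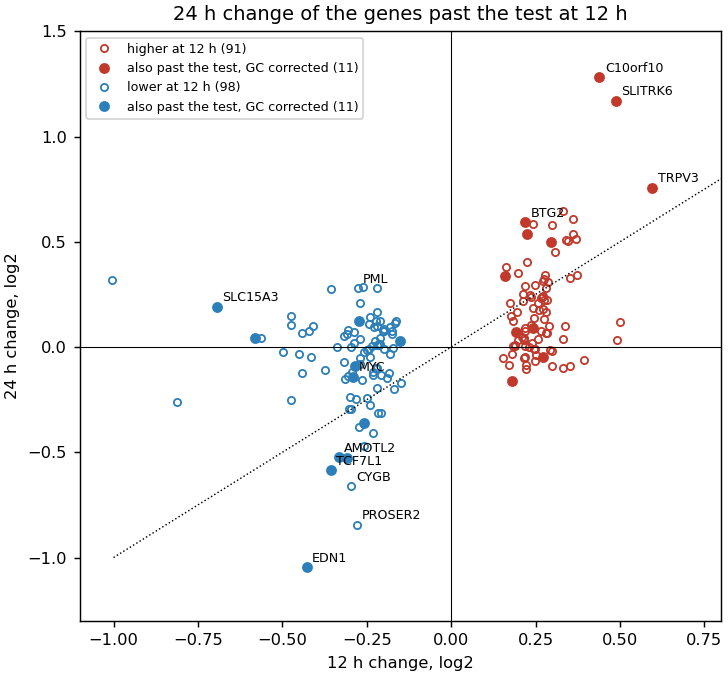
Log2 difference, Ad-TEADi minus Ad-GFP, at 24 h (y axis) against 12 h (x axis) for genes past the adjusted p at 12 h, filled where they also passed after the GC correction (11 rises and 11 falls), with a dotted line where both are equal. SLITRK6, C10orf10 and TRPV3 lie at the upper right and EDN1 at the lower left, and PVRIG2P at −1.96 lies outside the drawn range.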

How the data were processed

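Polyadenylated RNA of 18 libraries was sequenced (TruSeq), 3 for each virus at 12, 24 and 48 h. Per the submitters' processing notes and the study's methods, the authors trimmed reads with Trimmomatic 0.36, aligned them to hg19 with STAR (2.5.1 in the notes, another version in the methods), counted them in Partek 8.0.19.0819 for genes with at least 8 reads, added 1 read and applied TMM. Strandedness: not given in the sources used here. Used were the deposited TMM-scaled values (a signal on the scale of CPM) and the deposited TPM values, TPM only as an alternative. The authors' own p-values, ratios, fold changes and group means were not used. Only 74.2 to 78.6% of low values came within 0.01 of whole reads, so no count model was run.

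Genes on chromosomes 1 to 22, X or MT whose value reached 1 in 3 or more libraries were tested on log2(value + 1), with 1 as pseudocount, in limma 3.58.1 (R 4.3.3) with 6 group means over all 18 libraries and empirical Bayes with trend and robust settings. Left out were 476 rows on other contigs and 2370 below the filter. Of the tested genes, 74 may share reads with near copies. GC content was that of the longest GENCODE transcript of a gene (GRCh37), and promoters from RefSeq (GRCh38.p14) were searched with Python 3.11.15. Depth was taken from the smallest step of the values, and the precision is that of 3 libraries a group. The members and lists were chosen with earlier results of these data known. Genes were named from the 12 largest rises and falls with a mean of at least 5 and no overlap, and from those past the fold limit or past both limits at 24 h. All YAP/TAZ-TEAD targets, TEAD factors and genes named by the study were also eligible, with up to 4 of each other list by adjusted p. Only some of the eligible genes are printed. The fit was tested on simulated data.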

Additional observations from a re-analysis of the deposited data

Results flagged for a closer look

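The response to TEADi at 24 h differed from that at 12 h, by limma's test of the difference of the 2 responses over all tested genes, in 36 of the genes described (adjusted p 1.47e-05 to 0.0451). The values are the 24 h minus the 12 h log2 difference, each Ad-TEADi minus Ad-GFP.

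The genes that were lower in Ad-TEADi cells at 12 h and further below Ad-GFP cells at 24 h were ADAMTS1 (−0.96), CTGF (−1.34), CYGB (−0.36), CYR61 (−0.66), EDN1 (−0.62) and PROSER2 (−0.56). Those that were higher at 12 h and further above Ad-GFP cells at 24 h were BTG2 (0.37), C10orf10 (0.84), DSC2 (0.28), ITGB6 (0.34), PLAU (0.18) and SLITRK6 (0.68).

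Genes with a negative 12 h difference and a higher one at 24 h were C19orf66 (0.50), CFL1 (0.23), CTC-273B12.8 (1.33), FKBP1C (0.62), GPI (0.28), IVL (0.69), LRRC61 (0.51), PARP12 (0.40), PML (0.56), PVRIG2P (1.94), RTN4R (0.58), SLC15A3 (0.88), TRIM21 (0.48), ZNF213 (0.51) and ZYX (0.32). IVL, which encodes involucrin, was at −0.013 at 12 h. Those with a positive 12 h difference and a lower one at 24 h were ARID4A (−0.46), RPL9 (−0.31), RPL9P8 (−0.44), RPS23 (−0.21), RPS24 (−0.26), RRM2B (−0.31), SETDB2 (−0.45), SLC7A11 (−0.43) and VGLL1 (−1.02). VGLL1 had low values at 12 h, with means of 2.01 in Ad-TEADi and 1.78 in Ad-GFP cells. RPL9 and RPL9P8 may share reads.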

How the results depend on the processing

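The count of 189 genes past the adjusted p at 12 h depended on most choices. It was 5 at an adjusted p of 0.01 and 565 at 0.1, 118 with no filter on low values, 336 with a mean of at least 10, 63 on TPM values (48 with a pseudocount of 0.1), 0 in limma without trend or robust settings (2211 at an unadjusted p of 0.05), 86 in the 12 h libraries alone (25 higher and 61 lower in Ad-TEADi cells), 35 after GC correction and 71 after correction for GC and length, and 0 to 250 without 1 library (5 to 40 with GC correction). Same-numbered deviations at 12 h correlated at 0.051, −0.107 and 0.088, against −0.26 to 0.204 for libraries of different numbers. So few correlations cannot decide whether equal numbers mark paired samples. With the replicate block 309 genes passed, 9 of them past the fold limit.

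The 5 genes past the fold limit were 0 at an adjusted p of 0.01, with a mean of at least 10 or without trend or robust settings, 11 with a pseudocount of 0.1, 1 with a pseudocount of 5, 1 on TPM values with either pseudocount, and 0 to 8 without 1 library (0 to 5 with GC correction). The 1335 genes whose 24 h and 12 h responses differed were 539 at an adjusted p of 0.01, 2100 at 0.1, 734 on TPM values with a pseudocount of 0.1, and 859 to 1264 without 1 library (680 to 1198 with GC correction). Of the genes past the adjusted p at 12 h, 66.7% had the same direction at 24 h, against 55.6% on TPM values (58.3% with a pseudocount of 0.1), 76.1% after correction for GC and length, and 56.2 to 81.8% without 1 library (57.1 to 100% with GC correction). At 48 h the share was 78.3%, against 66.7% on TPM values and 65.5 to 78.8% without 1 library (65.7 to 100% with GC correction). The lower counts under stricter thresholds follow from their construction, and for the others the cause was not tested. The split of the calls moved with TPM values, to 57 higher and 6 lower at 12 h (91 and 98 on TMM values) and to 170 higher and 744 lower for the 24 h minus the 12 h response (750 and 585 on TMM values). The median of the ribosomal proteins, 0.039, was −0.006 without replicate 2 of Ad-GFP. The GC corrections, the TPM pseudocount of 0.1 and the list medians without a library were chosen after seeing the data.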
